A study of Mus musculus with 36 samples.

Results

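The regions described here are the CpG-dense windows of the mouse autosomes, the part of the genome that holds most CpG islands. They were taken as fixed 500-bp windows with 25 or more of the CpGs listed in the count files and at least 30 counts in each of the 24 animals. This left 30040 windows of the 1456902 autosomal windows tested (2.06%), and 211 of the 30251 windows with enough CpGs were left out for low counts. The rule used only sequence and depth, not methylation. The windows held 1203653 CpGs, or 6.37% of the autosomal CpGs listed, and a median of 36 CpGs each, with 103 in the densest.

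Whole-genome bisulfite sequencing, which reads the methylated share of the alleles at each CpG, was performed on liver DNA of 24 mice of 2 inbred strains and their F1 offspring. The strains were C57BL/6N (B6) and C3H/HeN (C3), and the F1 came from 6 reciprocal matings, 3 with a B6 mother and 3 with a C3 mother. Offspring of a B6 mother were named B6C3F1 and those of a C3 mother C3B6F1. Each strain and each cross was represented by 3 males and 3 females.

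The B6 and C3 males were the sires and the B6 and C3 females the dams. The F1 males were the sons and the F1 females the daughters. The animals were mated at 10 weeks, the pups were weaned when the parents were 16 weeks old, and livers were taken at 20 weeks. The daughters were virgins, whereas each dam had raised a litter, and a dam and a daughter also differed in genotype. The labels did not tie an animal to a family, so all comparisons were between groups of animals. By the paper, each family gave a sire, a dam, a son and a daughter. The 6 animals of a cross were thus sons and daughters of 3 families, and the tests took them as independent. As samples were whole liver, a shift in the mixture of cell types and a shift within a cell type cannot be told apart.

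In mammals, most CpGs are methylated and have been lost from the genome by mutation over evolution. CpG islands are the exception: short stretches rich in CpG and in G and C that mostly stay unmethylated and lie at the start sites of many genes, among them nearly all housekeeping genes. A small number of islands are methylated in somatic tissue, such as those of germline genes and, on one parental allele, those of imprinted genes.

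Sequences of 7 windows are shown to give the range of the set and the windows on which the comparisons turn. All are from the plus strand of mm9 and run 5′ to 3′, with each CG in capitals. The first lies at the start of Qk (chr17:10512251-10512450), which encodes the RNA-binding protein quaking, and is shown as an unmethylated start. The second lies at the start of Dazl (chr17:50433001-50433250), a germ-cell RNA-binding protein, and is shown as a methylated start. Differences between the crosses are represented by Mcts2 (chr2:152512551-152512850), an imprinted retrogene within an intron of H13, and by coding sequence of the cadherin gene Cdh20 (chr1:106890601-106890900). Coding sequence of Zc3h12d (chr10:7587101-7587400), a CCCH zinc-finger gene, is shown for the difference between strains. Coding sequence of S1pr5 (chr9:21049101-21049400, the gene on the minus strand), a receptor for sphingosine-1-phosphate, is shown for the difference between sires and dams. An intron of Snd1 (chr6:28782601-28782900) is shown because there the strain difference was not the same in sires and dams.
Qk: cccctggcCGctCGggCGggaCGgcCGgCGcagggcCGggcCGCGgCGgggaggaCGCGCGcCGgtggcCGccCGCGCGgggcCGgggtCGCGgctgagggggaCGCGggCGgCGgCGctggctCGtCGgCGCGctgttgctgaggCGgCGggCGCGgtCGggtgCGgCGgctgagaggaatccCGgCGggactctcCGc
Dazl: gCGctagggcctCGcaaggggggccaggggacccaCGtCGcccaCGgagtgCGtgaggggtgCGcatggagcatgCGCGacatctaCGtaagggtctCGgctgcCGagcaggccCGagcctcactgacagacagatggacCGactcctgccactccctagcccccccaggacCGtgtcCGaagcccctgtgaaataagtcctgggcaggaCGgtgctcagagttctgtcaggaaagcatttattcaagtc
Mcts2: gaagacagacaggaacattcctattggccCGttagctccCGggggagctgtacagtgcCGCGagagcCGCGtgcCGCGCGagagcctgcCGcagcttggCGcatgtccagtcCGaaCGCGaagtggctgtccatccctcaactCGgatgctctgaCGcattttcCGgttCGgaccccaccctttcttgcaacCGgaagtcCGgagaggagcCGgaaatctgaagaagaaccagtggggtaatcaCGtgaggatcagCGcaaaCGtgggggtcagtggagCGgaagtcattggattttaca
Cdh20: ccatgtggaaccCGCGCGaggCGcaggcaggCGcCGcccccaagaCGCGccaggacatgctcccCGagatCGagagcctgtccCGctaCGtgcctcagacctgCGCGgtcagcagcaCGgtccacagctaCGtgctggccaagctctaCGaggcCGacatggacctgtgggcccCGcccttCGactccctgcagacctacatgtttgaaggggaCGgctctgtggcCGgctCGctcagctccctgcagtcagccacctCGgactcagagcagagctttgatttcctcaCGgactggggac
Zc3h12d: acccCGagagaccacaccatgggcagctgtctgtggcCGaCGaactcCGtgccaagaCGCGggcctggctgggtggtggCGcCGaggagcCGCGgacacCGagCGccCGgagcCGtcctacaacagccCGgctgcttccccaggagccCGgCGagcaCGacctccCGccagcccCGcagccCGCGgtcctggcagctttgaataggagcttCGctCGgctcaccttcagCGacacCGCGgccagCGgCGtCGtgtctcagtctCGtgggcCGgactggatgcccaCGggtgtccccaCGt
S1pr5: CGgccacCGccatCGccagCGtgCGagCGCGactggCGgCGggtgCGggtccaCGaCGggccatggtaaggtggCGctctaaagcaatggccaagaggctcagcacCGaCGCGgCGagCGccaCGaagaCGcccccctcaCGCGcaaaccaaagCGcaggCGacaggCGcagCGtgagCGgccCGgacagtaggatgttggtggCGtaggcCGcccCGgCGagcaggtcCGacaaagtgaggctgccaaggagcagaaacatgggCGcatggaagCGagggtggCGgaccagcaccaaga
Snd1: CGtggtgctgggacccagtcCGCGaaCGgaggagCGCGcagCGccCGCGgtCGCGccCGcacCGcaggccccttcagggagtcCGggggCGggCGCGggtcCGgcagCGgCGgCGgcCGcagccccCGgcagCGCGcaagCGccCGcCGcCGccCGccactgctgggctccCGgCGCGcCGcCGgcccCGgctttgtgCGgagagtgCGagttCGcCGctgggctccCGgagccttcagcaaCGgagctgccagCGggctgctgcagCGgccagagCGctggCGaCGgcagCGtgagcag
The Qk piece held 40 CGs in 200 bp and the Snd1 piece 48 in 300 bp. The Mcts2 and Cdh20 pieces held 25 each in 300 bp, the Zc3h12d piece 34 and the S1pr5 piece 36. The Dazl piece held 17 in 250 bp.

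The 24 libraries held 225116794 to 399594070 counts in the tested windows, and their mean methylation over all tested windows lay between 77.6% and 79.2%. The CpG-dense windows were covered less deeply than the rest, with 8.88 to 24.2 counts per CpG and animal against 18.7 to 33.1 over all tested windows. As each window pooled many CpGs, the median window still had 614 counts per animal. The median G and C content was 63.6%, and the median ratio of observed to expected CpGs was 0.778. A G and C content over 50% together with a ratio over 0.6, a common definition of a CpG island, was met by 87.6% of the dense windows and by 2.18% of all tested windows. Liver identity was checked at the start sites of marker genes: CpGs within 250 bp had a median of 19.1% methylation over 18 hepatocyte genes, 29.5% over 7 cholangiocyte genes, 30.8% over 11 stellate cell and fibroblast genes, 63.0% over 12 endothelial genes and 79.7% over 11 Kupffer cell and leukocyte genes.

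Most CpG-dense windows were unmethylated. By the mean over the 24 animals, 24700 windows (82.2%) were below 20% methylation, 1330 (4.43%) were intermediate, and 4010 (13.3%) were above 80%. Over all tested windows these shares were 4.85%, 28.3% and 66.8%. Most dense windows lay near one end of the scale or the other, with a median of 0.516% in the unmethylated class and 92.4% in the methylated class. The shares hardly varied between animals, with unmethylated shares from 81.7% to 82.7%, and were 82.4% ± 0.172 in B6 and 82.0% ± 0.204 in C3 (SD, n = 6 animals each).

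The share of unmethylated windows rose with CpG number. It was 60.9% at 25 to 29 CpGs, 81.2% at 30 to 39, 96.0% at 40 to 49, 98.1% at 50 to 59 and 98.9% at 60 or more. Windows below the limit were mostly methylated, with 9.79% unmethylated at 10 to 24 CpGs and 1.65% at 5 to 9. There was no step at the limit itself: 51.8% of the 2240 windows with 24 CpGs and 55.9% of the 1910 windows with 25 CpGs were unmethylated.

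**Figure D1:**
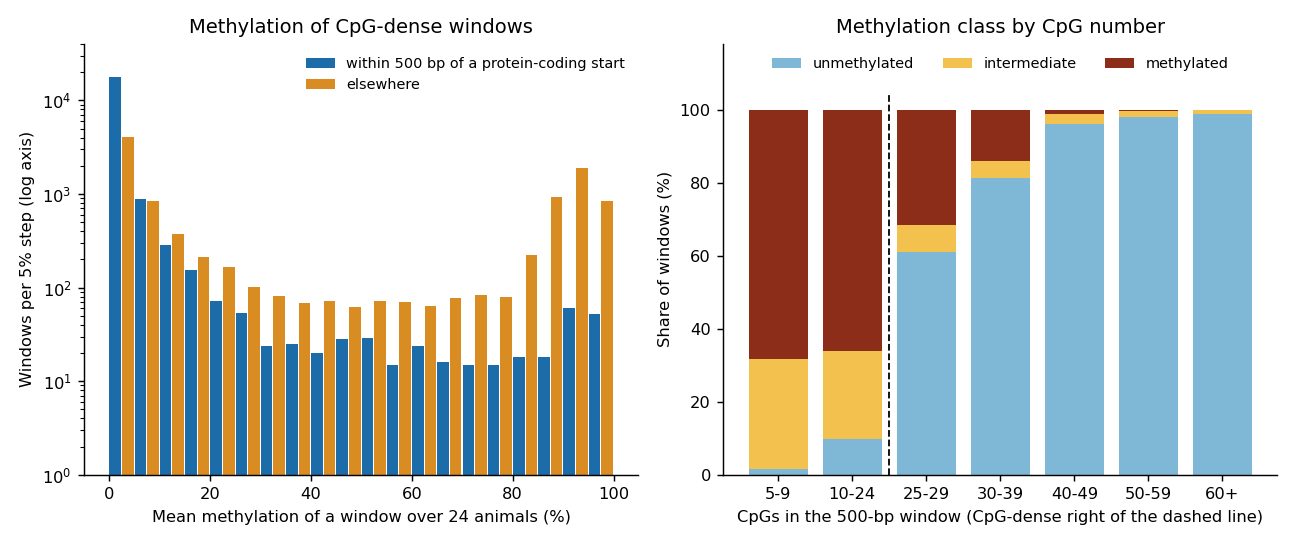
Left, number of CpG-dense windows (log axis) by mean methylation over 24 animals in steps of 5 percent, within 500 bp of a protein-coding start and elsewhere. Right, percent of tested windows that were unmethylated, intermediate or methylated by number of CpGs in the window, with a dashed line at 25 CpGs. Windows near a start pile up below 5 percent, windows elsewhere fall at both ends, and the unmethylated share climbs from 1.65% at 5 to 9 CpGs to 98.9% at 60 or more.

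Position relative to a gene start separated the classes further. Of the dense windows, 19716 (65.6%) lay within 500 bp of a protein-coding start, against 4.19% of all tested windows, and 11925 held a start. Of these promoter windows 97.5% were unmethylated, 1.7% intermediate and 0.756% methylated. Elsewhere the shares were 53.0%, 9.63% and 37.4%, and over 5 kb from any start they were 35.9%, 8.88% and 55.2%. Promoter windows made up 77.9% of the unmethylated class, 25.3% of the intermediate class and 3.72% of the methylated class. The median distance to a start was 22 bp, 3190 bp and 49300 bp in the 3 classes.

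Neighbouring dense windows mostly shared a class. The windows formed 18034 runs, of which 9809 were single windows, and 95.6% of the 8225 runs of 2 or more windows were of 1 class. The 5 unmethylated promoter windows with most CpGs held 100 to 102 CpGs and had means of 0.291% to 0.876%. They lay at the starts of Usp7, a deubiquitinase, Qk, Taf4a, a subunit of the general transcription factor TFIID, Pds5a, a cohesin regulator, and Aff3. In the Qk window no animal exceeded 1.75%. Away from starts, the 5 densest unmethylated windows had means of at most 3.64% (Klhl35, an exon), and the densest of all, with 103 CpGs, lay between genes 62360 bp from the start of the sodium channel gene Scn8a and had 1.31%.

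Gene lists gave the same picture for promoter windows. All 43 windows of 24 housekeeping genes were unmethylated, with a median of 0.315% and a highest value of 4.2%. So were all 36 windows of the DNA methylation machinery (Dnmt, Tet and related genes) and all 50 windows of a list of hormone and growth genes. The latter list held genes of growth hormone and prolactin signalling, steroid and thyroid hormone receptors, and others such as Egfr, Igf1r, Ccnd1 and Mki67. Of 178 windows of developmental transcription factors (Hox, Pax, Lhx, Nkx, Tbx, Irx and related genes), 176 were unmethylated and these are genes known to be largely silent in adult liver. The exceptions were Tbx3 at 70.1% and Hoxb3 at 20.2%. Of 129 ribosomal protein windows, 128 were unmethylated, and the exception was Rpl10l at 95.1%, an intronless copy known from testis.

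Large zinc finger and histone families followed with 303 of 312 Zfp windows and 67 of 69 histone windows unmethylated. Among the exceptions were Zfp64 at 96.8%, Hist1h2aa at 93.3% and Hist2h3c1 at 30.5%. All 12 dense windows of hepatocyte genes and all 7 of stellate cell and fibroblast genes were unmethylated, as were 2 of 3 endothelial windows (the third, of Eng, had 66.2%) and 32 of 33 windows of liver metabolism genes. Of 12 cholangiocyte windows 10 were unmethylated, and those of Cldn4 at 64.6% and of Sox9, a transcription factor of bile ducts, at 45.2% were not, while 3 other Sox9 windows had 0.668% to 1.35%. Only 1 of 1081 olfactory receptor genes and none of 12 annotated Kupffer cell and leukocyte genes had a dense window near a start.

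Germline genes were the list in which methylation prevailed. Of 19 dense windows near the starts of 15 genes, 15 were methylated, 1 was intermediate and 3 were unmethylated. Methylated starts included those of Dpep3 (95.4%), Stk31 (94.7%), Sycp1 (90.6%, a protein of the synaptonemal complex) and Mael (83.2%, of the piRNA pathway). Dazl changed over a short distance: 3 adjacent windows had 5.91%, 93.9% and 97.6%, and in the last of these, from which the Dazl sequence was taken, no animal was below 96.0%. The unmethylated windows beside that of Dazl were both of Tdrkh, at 2.18% and 6.12%. Tdrd1, a Tudor-domain protein of the piRNA pathway, was intermediate at 54.5% and ranged from 34.9% to 73.4% among animals.

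The methylated class consisted mainly of multi-copy sequence. A window was taken as multi-copy when 50% or more of its 31-base words occurred more than once in mm9. This held for 72.0% of methylated windows (2888), for 10.4% of intermediate windows (138) and for 1.34% of unmethylated windows (332). Some reads of such copies may not be placed with certainty, so their values may mix copies. The placement of reads was not tested. Of the 1122 methylated windows that were not multi-copy, 83.7% overlapped an exon, and 762 lay over 5 kb from a start. The 5 densest methylated windows away from starts held 61 to 70 CpGs, and 3 of them lay in exons of Hcn2 (82.9%, a pacemaker channel), Shroom3 (95.6%, an actin-binding protein) and Sh2b3 (87.5%, an adaptor of cytokine signalling). Among 149 methylated promoter windows, 18.1% were multi-copy, and the densest not so were at 4933428G20Rik (85.5%), Hsf5 (94.4%, a heat shock factor) and Zfp865 (93.9%).

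Sequence words were also counted in each class, without a test of the differences. The GC box (GGGCGG, searched on both strands as all words here) was present in 78.0% of unmethylated, 55.0% of intermediate and 43.0% of methylated windows, and in 10.6% of a sample of 145691 windows, 1 in 10 of all tested. The cyclic AMP response element TGACGTCA was present in 2.19%, 0.526% and 4.99% (0.583% of the sample), and in 1.25% of the methylated windows that were not multi-copy. TATAAA was found in 5.94%, 5.56% and 6.28% of the classes against 29.1% of the sample. Of the hexamer TGCCGC, the core word bound by ZFP57, the shares were 38.5%, 33.5% and 25.2% (6.96% of the sample), and 34.1% of the methylated windows that were not multi-copy. These matches describe letters and not binding. GGGCGG, TGACGTCA and TGCCGC each hold a CG and TATAAA holds no C or G, whereas the windows were chosen for many CpGs. Shares in the dense windows and in the sample thus cannot be compared apart from base composition. The classes also differed in CpG number, with medians of 39, 30 and 28 CpGs, and its part in the class shares was not tested.

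Intermediate windows varied most. The median SD between the 3 animals of a group was 4.49 points in the intermediate class, 0.346 in the unmethylated and 1.71 in the methylated class. In 54.0% of intermediate windows all 24 animals fell in the class, against 97.6% and 84.6% in the other classes. Methylation was often uneven within a window. The CpGs of each window were split by number, not by length, into a left and a right set. These sets differed by a median of 13 points in the intermediate class, against 0.217 and 1.65 points in the other classes. The intermediate promoter windows with most CpGs were at Fut11 (66.7%), Zmiz1 (61.4%), Lrfn4 (72.0%) and the imprinted genes Grb10 (53.4%, a growth factor receptor adaptor) and Igf2r (40.3%, the receptor that clears IGF2). Away from starts they were at Rbmxl2 (28.6%), Dact3 (43.0%), Zfp316 (27.5%), Snx20 (22.2%) and a site 61686 bp from Ankrd33 (79.6%).

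In 100 windows, 7.52% of the intermediate class, each of the 24 animals lay between 35% and 65%. Of these 14 lay within 5 kb of a start of a gene on the list of imprinted genes. The list held 40 genes, of which 38 were annotated, so imprinted loci can also lie among the other windows. They comprised 8 windows of Gnas, a complex locus that encodes the stimulatory G protein subunit, 2 at Zrsr1 and 1 each at Peg10, Plagl1, Grb10 and Slc38a4. In these 14 windows a median of 100% of the CpGs had means between 20% and 80%. Their left and right sets of CpGs differed by a median of 1.98 points. In the other 86 the medians were 85.9% and 20.6 points. Among the densest others were Agap3 (69 CpGs, 50.2%), Boll (62 CpGs, 51.7%), Bloc1s3 (57 CpGs, 44.9%) and an intron of Kcnq1 (42 CpGs, 51.0%), a gene of an imprinted cluster. In Mesdc1 the mean was 51.1%, but the left and right sets of CpGs differed by 62 points.

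Of the 81 dense windows near starts of imprinted genes, 42 were intermediate, 35 unmethylated and 4 methylated. The methylated windows belonged to Trappc9 (96.2%), Meg3 (92.3%), Inpp5f (81.4%) and Nnat/Blcap (80.6%). Reversal of the parental origin of the alleles in the F1 left most of the intermediate windows close together: B6C3F1 and C3B6F1 differed by a median of 1.67 points, 30 of 42 were within 5 points, and the range was from -8.9 to 21.5. The window at the upper end was that of Mcts2.

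Between the strains, 114 dense windows differed (0.379%) against 0.494% of all tested windows, so that the difference was no more frequent here than in the genome at large. A window was called where limma gave a Benjamini-Hochberg adjusted p below 0.05 over all tested windows and the means differed by 20 points or more. Methylation was higher in B6 in 42 windows (0.245% of all tested windows were called in that direction) and higher in C3 in 72 (0.249%). In 105 of the 114 every animal of one strain lay above every animal of the other (0.475% of all tested windows). The intermediate class held 80 of the 114, or 6.02% of its windows, against 1.62% of all tested intermediate windows. As the class was set by the mean over the same animals, a large difference between strains by itself brings a window toward this class. The other calls were 22 methylated windows (0.549% of the class, against 0.0436% of all tested methylated windows) and 12 unmethylated windows (0.0486%, against 0.122%). Of the 22, 15 were higher in B6, as were 284 of the 424 over all tested windows, and all 12 were higher in C3, as were 61 of 86.

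Of the called windows, 62 (54.4%) overlapped exons, 17 (14.9%) lay in introns and 35 (30.7%) between genes, against 69.2%, 11.8% and 19% of all dense windows. No annotated single nucleotide variant of the strains lay in 86 of the 114, against 88.2% of all dense windows. The 28 others were 0.789% of the dense windows that held a variant. At a limit of 10 points, 505 dense windows differed, against 2.39% of all tested windows. Multi-copy sequence made up 44 of the 114 calls (all dense windows, 11.2%), and the depth in B6 was 1.5 or more times that in C3 in 20 (all dense windows, 4.53%). Over the 114, the ratio of B6 to C3 depth ran from 0.0715 to 12.1. Without windows of such unequal depth in either direction, 86 of the calls were left. The part of copy number and of unequal depth in these calls was not tested. No window of the gene lists was called between strains at 20 points. At 10 points 3 were, the Tdrd1 window (-12.7 points for B6 minus C3, adjusted p = 0.0131), the intermediate Sox9 window (12.9 points, adjusted p = 0.00524) and 1 window of the DNA methyltransferase gene Dnmt3a (13.4 points, adjusted p = 6.21e-06).

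Of the called windows that were not multi-copy, the one with the greatest excess in B6 lay in Zc3h12d (chr10:7587001-7587500, 48 CpGs), in an exon 34733 bp from a start. In the 6 B6 animals methylation was lowest at 69.7%, with a median of 72.7% and a highest value of 75.9%, and in the 6 C3 animals these values were 1.45%, 2.89% and 6.7%. Every B6 animal was thus far above every C3 animal. The difference was 69.8 points (log2 ratio of methylated to unmethylated counts 6.42 ± 0.21 SE, adjusted p = 5.15e-20). The F1 animals fell between, at 37.5% ± 4.77 in B6C3F1 and 33.6% ± 7.63 in C3B6F1 (SD, n = 6 each). Each of the 48 CpGs was higher in B6, the depth in B6 was 1.05 times that in C3, and the window held no variant. The 7 CpGs in the 500 bp to its left had 93.0% in B6 and 89.7% in C3, whereas the 23 CpGs to its right had 79.5% and 42.2%.

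Other windows higher in B6 included an exon of Ltbp4, which binds latent TGF-beta, and a site 33250 bp from Wnt7b. In Ltbp4 the B6 animals had 77.3% to 81.9% and the C3 animals 38.0% to 46.9%, a difference of 38.7 points (adjusted p = 2.47e-14). Near Wnt7b the means were 75.7% and 27.0% (adjusted p = 1.53e-15). The other 5 windows named in this direction, near Ust, Slc24a3, 9430015G10Rik, in Gm17683 and in Gm16889, differed by 39.2 to 73.2 points, and each was multi-copy or had a depth ratio of 1.5 or more.

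The greatest difference of all 114 windows was 9236 bp from the start of Pdcd2 and was higher in C3. B6 animals had 12.0% to 18.6% (median 14.5%) and C3 animals 89.1% to 97.3% (median 95.5%), a difference of -79.1 points for B6 minus C3 (adjusted p = 7.28e-18). The depth there was 2.47 times as high in B6, and its part in the result was not tested. An exon of Cyp46a1, the cholesterol 24-hydroxylase, had 8.71% ± 1.41 in B6 and 76.0% ± 3.33 in C3 (adjusted p = 3.55e-19), with 3 variants and a depth ratio of 1.94.

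At gene starts, 21 windows were called, or 0.107% of promoter windows against 0.901% of the other dense windows, with 0.494% over all tested windows. Of the 21, 18 were higher in C3 (all tested windows, 0.249% in that direction). The windows named next were chosen for their genes after the values were seen, apart from Phldb2. At the start of Phldb2, which encodes a membrane-binding protein of the cell cortex, C3 animals had 69.9% to 83.1% and B6 animals 4.61% to 36.7%. The B6 dams (33.0% ± 3.94) were all above the B6 sires (7.58% ± 4.36, SD, n = 3 each), and both were below every C3 animal (adjusted p = 8.6e-16). The next window of the same gene had 13% in B6 and 60.5% in C3. Wnt5a, a secreted Wnt ligand, had 20.4% to 34.1% in B6 and 61.2% to 82.8% in C3 (adjusted p = 7.93e-14).

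Some starts were unmethylated in B6 and partly methylated in C3. Arap1, an Arf GTPase-activating protein, had at most 4.42% in B6 and 32.7% to 51.3% in C3 (difference -40.1 points, adjusted p = 1.76e-15). Ndufc2, a subunit of respiratory complex I, had at most 0.325% in B6 and 15.6% to 27.3% in C3 (adjusted p = 1.8e-16). Rspo2, an agonist of Wnt signalling, had at most 1.28% in B6 and 15.4% to 28.0% in C3 (adjusted p = 1.69e-14). In none of these 3 windows did the strains overlap, and the F1 animals lay between them, with means of 8.63% and 10.9% in the 2 crosses at Ndufc2 and of 11.5% and 12.2% at Rspo2. Higher in B6 were the starts of Itpripl2 (48.4% and 26.9%), Gm11127 (92.3% and 70.2%) and 1700008P20Rik (36.6% and 13%).

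The F1 mean lay between the parental means in 113 of the 114 windows. On a scale with C3 at 0 and B6 at 1, the median position of the F1 was 0.564, and it was 0.565 in the 70 windows that were not multi-copy. In the 44 multi-copy windows it was 0.56 over both directions, with 0.831 in the 21 windows higher in B6 and 0.359 in the 23 higher in C3. In the windows that were not multi-copy these values were 0.58 (21 windows) and 0.552 (49 windows). Near Gm5444, a multi-copy window, B6 had 19.1% and C3 95.7%, while B6C3F1 had 84.0% and C3B6F1 92.7%.

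**Figure D2:**
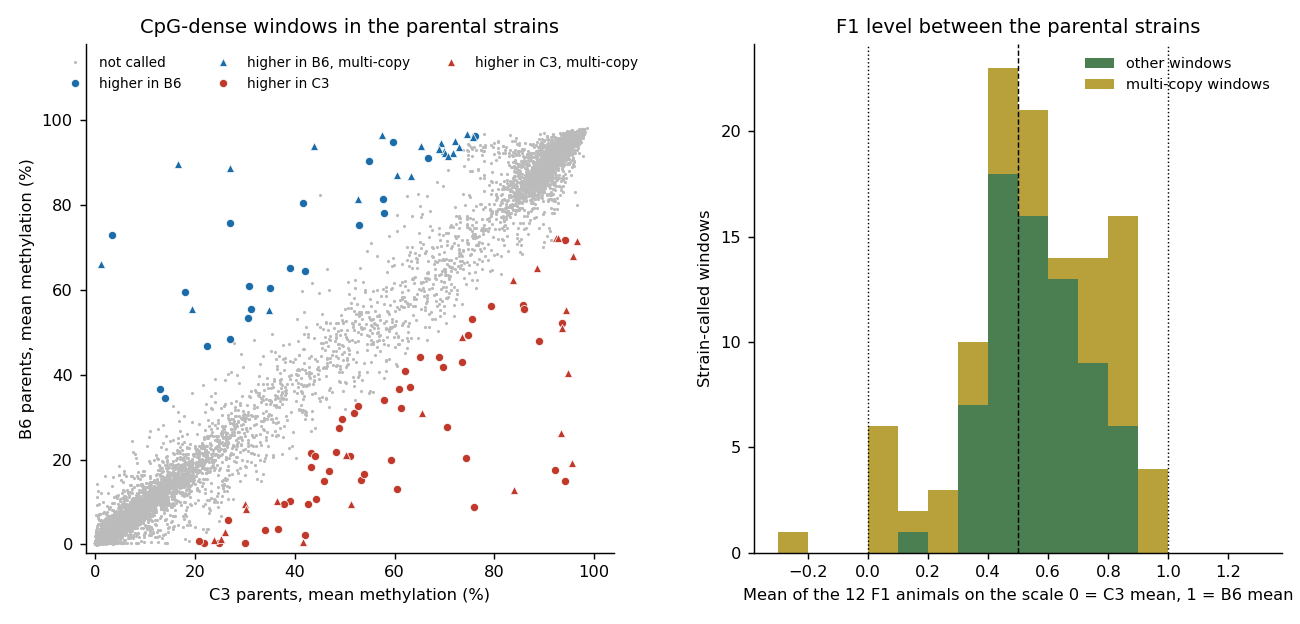
Left, mean methylation of each CpG-dense window in C3 (x axis) and B6 (y axis), percent of 6 animals each, with called windows in colour and multi-copy called windows as triangles. Right, number of called windows by position of the F1 mean between the parents (0 is the C3 mean, 1 the B6 mean). Most windows sit on the diagonal near 0 or 100 percent, the 114 called windows lie off it on both sides, and the F1 positions centre at 0.564.

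The 2 F1 crosses differ in the parental origin of their alleles and in their mothers. Of the dense windows 3 differed between them (all tested windows, 0.000686% called), and in each the 2 crosses did not overlap (all tested windows, 0.000618%). All 3 were in the intermediate or unmethylated class and were not multi-copy. The tests took the 6 animals of a cross as independent, though they came from 3 mothers. Of the 3 windows, 1 was also called within males alone and 0 within females alone, with 3 animals a group. At 10 points 5 windows differed (all tested windows, 0.00178%), again without overlap in any (all tested windows, 0.00158%). Beside the 3 these were by Nkpd1, with 13.5% in B6C3F1 and 33.4% in C3B6F1 (adjusted p = 0.000541), and by 2010001K21Rik, with 91.1% and 74.1% (adjusted p = 0.00133).

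The first lay in Cdh20 (chr1:106890501-106891000, 46 CpGs), in an exon 225395 bp from a start. B6C3F1 animals had 8.35% to 15.3% with a median of 13.7%, and C3B6F1 animals 28.6% to 47.4% with a median of 44.1%. Each cross was thus at the level of its mother's strain, as B6 animals had 5.1% to 15.7% and C3 animals 25.4% to 52.7%. The crosses differed by -28.6 points (log2 -2.29 ± 0.26 SE, adjusted p = 0.000119) and the strains by -28.4 points (adjusted p = 9.55e-09). Each of the 46 CpGs was lower in B6C3F1.

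The second held the start of BC051142 (chr17:34535501-34536000, 27 CpGs). B6C3F1 animals had 2.84% to 6.2% with a median of 3.21%, and C3B6F1 animals 18.5% to 40.8% with a median of 27% (difference -24 points, adjusted p = 0.00321). The strains themselves had means of 5.95% and 14.2% and overlapped, so that C3B6F1 was above both parents on average.

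The third held the start of Mcts2, near which the paternal allele is known to be expressed and the maternal allele methylated. B6C3F1 animals had 53.3% to 63.8% with a median of 56.4% and C3B6F1 animals 30.6% to 41.4% with a median of 36.0%. The difference was 21.5 points (log2 1.27 ± 0.16 SE, adjusted p = 0.0011), and 42 of 45 CpGs were higher in B6C3F1. The parents had 48.8% ± 4.45 in B6 and 50.2% ± 4.74 in C3 and lay between the crosses. The depth in B6 was 1.73 times that in C3, the highest ratio of the 42 intermediate windows of imprinted genes, whose median was 1.02, and the window held 2 variants. The part of unequal depth of the alleles in this difference was not tested. The 13 CpGs to the left differed as well, with 92.1% and 63.0%, but the 16 to the right had 51.8% and 52.5%.

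**Figure D3:**
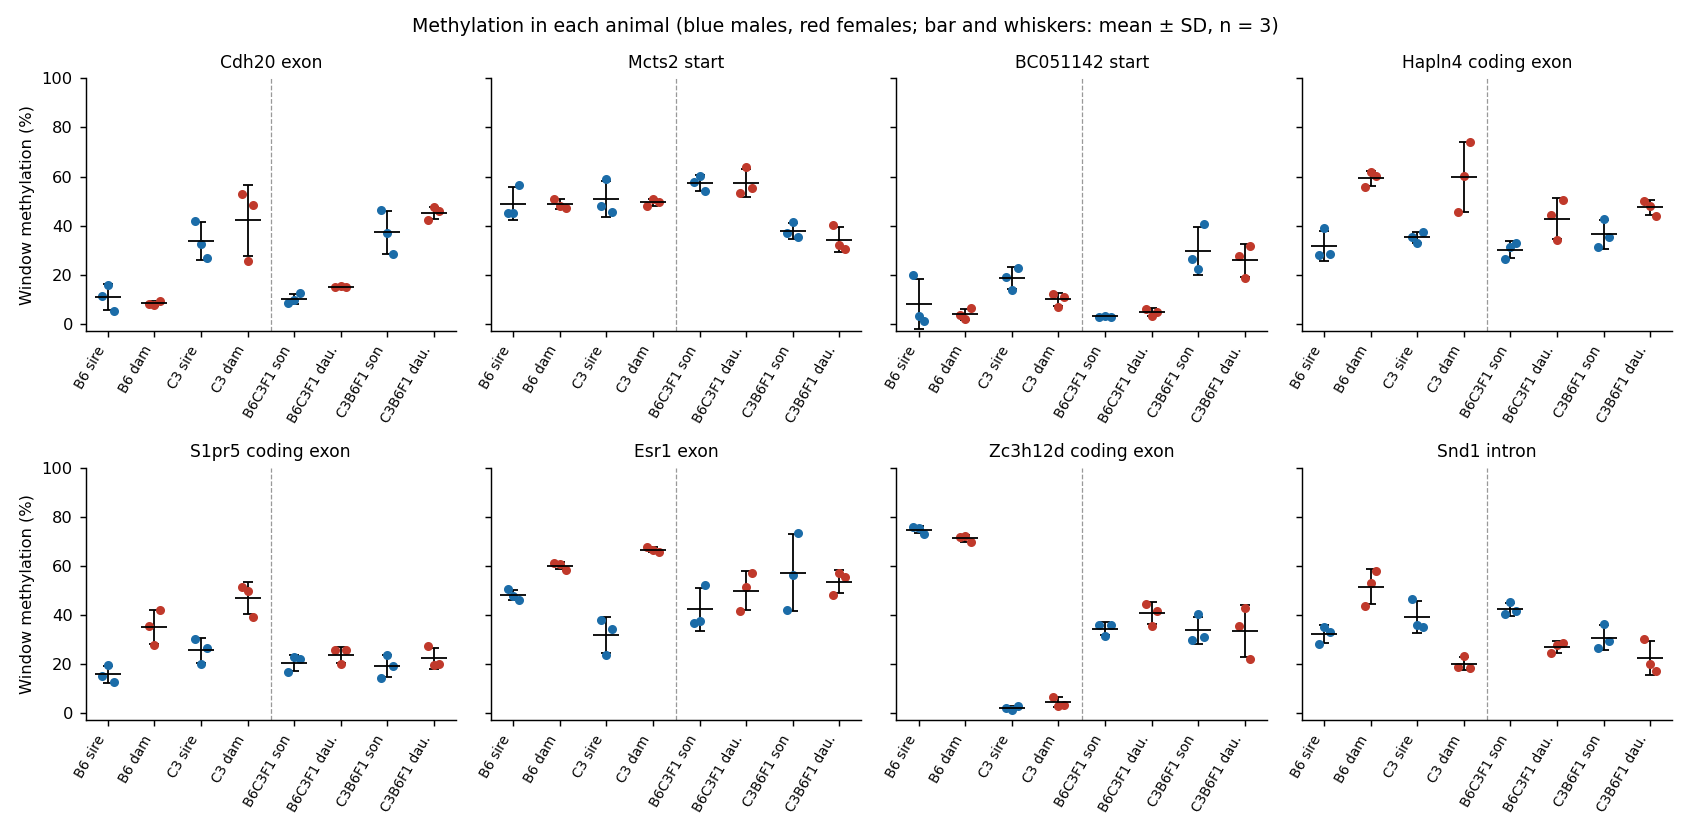
Methylation in percent of 8 CpG-dense windows in each of the 24 animals, by strain or cross and sex, with males in blue and females in red and bars for the mean and SD of 3 animals. In Cdh20 each cross sits with its mother's strain, in Zc3h12d the F1 lie between the strains, and in Hapln4, S1pr5 and Esr1 the dams sit highest on average.

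Between sires and dams, 4 windows differed (all tested windows, 0.104%), and all 4 were higher in dams (all tested windows, 0.0684% in that direction). In 2 of them the 6 sires and 6 dams did not overlap (all tested windows, 0.094%). None was near a start or multi-copy, and each was in the intermediate class. Leaving out B6 sire 3 or B6 dam 3 left 2 calls.

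An exon of Hapln4, a link protein that ties hyaluronan to proteoglycans, differed most. In chr8:72612001-72612500 (44 CpGs) the sires had 28.0% to 38.9% with a median of 34.2% and the dams 45.5% to 74.0% with a median of 60.2%. The lowest dam was thus above the highest sire. The difference was -26.1 points for sires minus dams (log2 -1.57 ± 0.21 SE, adjusted p = 1.24e-05). All 44 CpGs were higher in dams than in sires. Sons had 33.3% and daughters 45.2% on average, but the 2 groups overlapped, at 26.4% to 42.9% and 34.1% to 50.3% (limma adjusted p = 0.208).

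A window of Esr1, which encodes estrogen receptor alpha, lay in an exon 2386 bp from a start (chr10:5633501-5634000, 50 CpGs). Sires had 23.8% to 50.5% (median 42.0%) and dams 58.4% to 67.9% (median 63.4%), without overlap (difference -23.3 points, adjusted p = 0.000227). The means of sons at 49.7% ± 14 and of daughters at 51.8% ± 6.14 lay between (SD, n = 6 each). Sons ran from 36.6% to 73.4%, so that the highest son was above every dam, and daughters from 41.5% to 57.1%.

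The remaining calls were 2 adjacent windows in the coding exon of S1pr5. In the denser one (chr9:21049001-21049500, 57 CpGs) sires had 12.7% to 30.2% (median 19.9%) and dams 27.9% to 51.4% (median 40.6%), so that the groups just overlapped (difference -20.2 points, adjusted p = 2.76e-05). Daughters had 19.5% to 27.2% (median 22.9%), below every dam, a difference of 17.9 points for dams minus daughters (adjusted p = 0.00191). The means of sires, sons and daughters were 20.8%, 19.8% and 23%. In the next window the means were 37.9% in sires, 57.9% in dams and 41.3% in daughters (dams minus daughters 16.6 points, adjusted p = 0.016). The sire-dam and dam-daughter comparisons share the dams, so these values are not independent of each other.

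**Figure D4:**
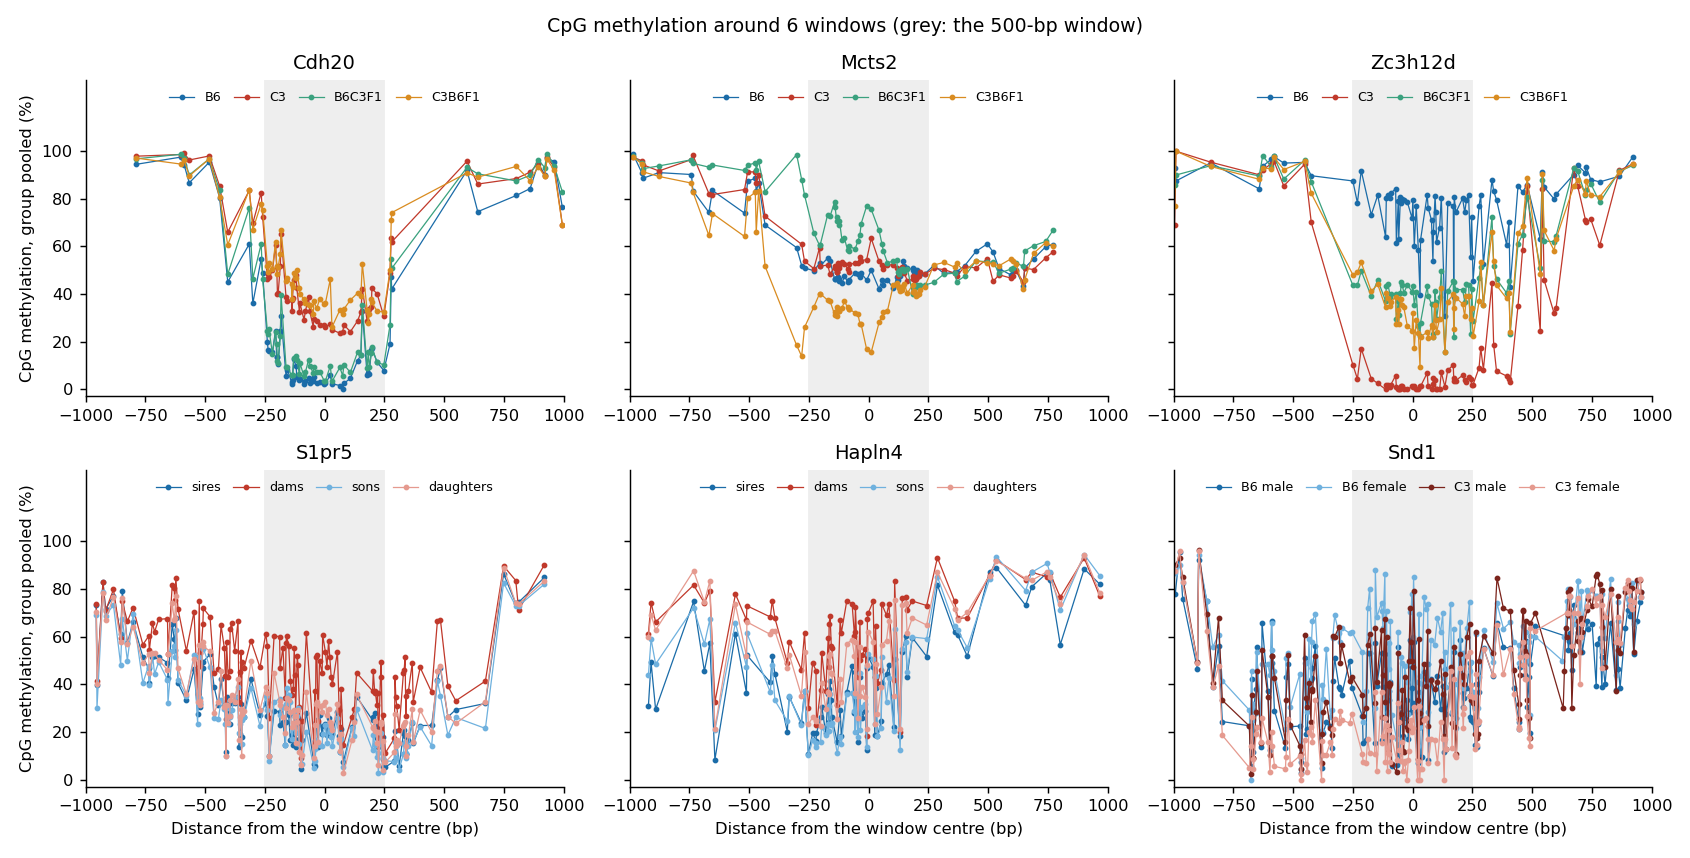
Methylation of single CpGs in percent against distance from the window's centre (bp, 1000 to each side) for 6 windows, from the pooled counts of each group, with the 500-bp window in grey. Groups are the strains and crosses for Cdh20, Mcts2 and Zc3h12d, the 4 roles for S1pr5 and Hapln4, and strain with sex for Snd1. In the grey windows B6 lies above C3 at all 48 CpGs of Zc3h12d, dams lie above sires at all 44 CpGs of Hapln4, and B6C3F1 lies above C3B6F1 at 42 of 45 CpGs of Mcts2.

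At a limit of 10 points, 22 windows differed between sires and dams (all tested windows, 0.573%), 18 of them higher in dams (0.333%). The sons and daughters are other animals than the sires and dams, and 20 of the 22 windows had the same sign between them, against 89.1% of all tested windows past 10 points. Of the 18 windows higher in dams, 14 had daughters 5 points or more lower than dams, against 25.8% of all tested windows of that kind. Both comparisons of these 18 windows use the same dams. Past 10 points in both generations were 4 windows (all tested windows, 0.185%, counting either direction), all higher in males. Over all tested windows, calls at 20 points went mostly the other way. Of these, 520 were higher in sires and 997 in dams, and 52 were higher in sons and 691 in daughters. The largest of the 4 differences was in an intron of Fbrsl1, with means of 37.0% in sires, 20.4% in dams, 39.8% in sons and 26.1% in daughters (adjusted p = 2.81e-05 and 0.00568). The others were the start of Omp, the olfactory marker protein (73.9%, 62.9%, 76.7% and 63.3%), an exon of the atypical MAP kinase gene Mapk15 (sires minus dams 12.4 points and sons minus daughters 12.6) and a site by 1700012B15Rik (13.9%, 1.7%, 15.4% and 2.85%). In each of the 4 windows, males and females overlapped. At Omp, for example, sires ran from 50.5% to 91.4% and dams from 35.0% to 89.1%.

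In 3 windows all 12 females were above all 12 males (0.00999% of dense windows, against 0.121% of all tested windows in which the sexes did not overlap). All 3 lay side by side in C1ql3, which encodes a secreted C1q-like protein. In the one nearest the start, 374 bp away, males had 0.977% to 4.99% and females 6.89% to 20.5% (sire-dam adjusted p = 1.75e-07, son-daughter adjusted p = 0.000199). In the next, males had 1.84% to 4.75% and females 5.49% to 10.6%, and in the outer one males had 15.6% to 28.3% and females 29.5% to 46.4%. From the start outward, sires minus dams were -11.9, -6.15 and -15.8 points and sons minus daughters -8.43, -4.29 and -9.48 points. The start of Rmnd5b, a subunit of a ubiquitin ligase, had at most 2.98% in the 12 males, 0.145% to 14.4% in dams and 9.29% to 14% in daughters (son-daughter difference -10.7 points, adjusted p = 1.14e-07). These windows were named after their values were seen.

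**Figure D5:**
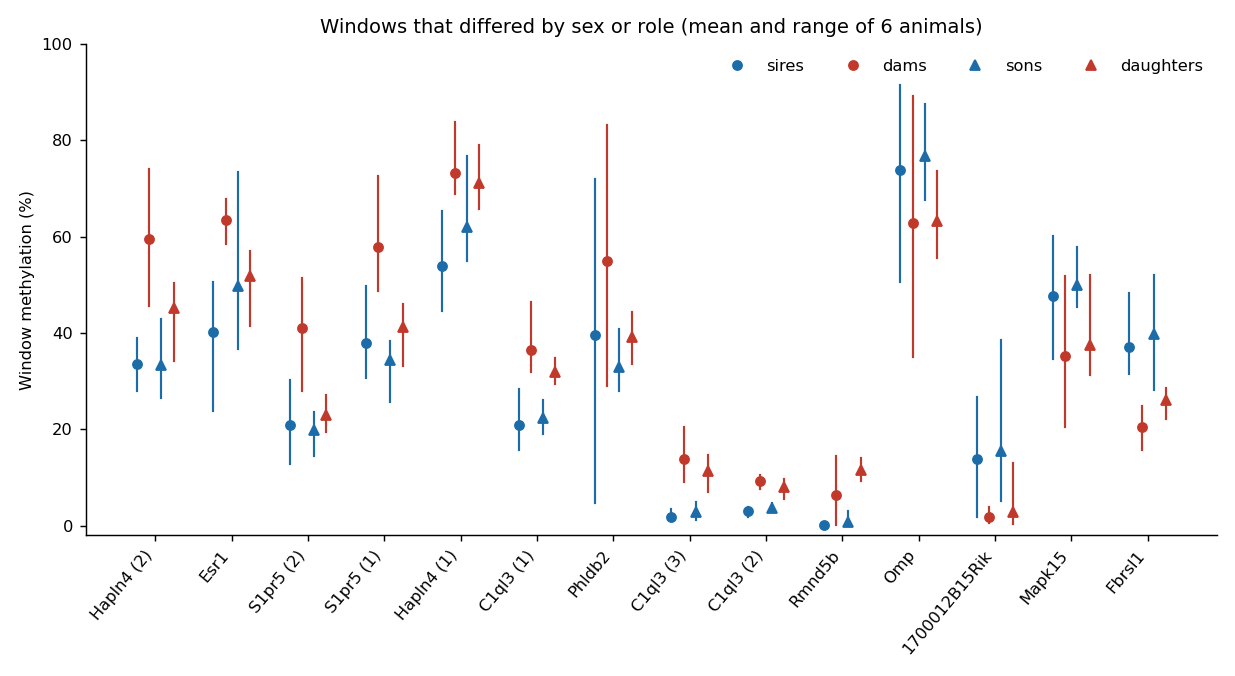
Mean methylation in percent (points) and range (lines) of 6 sires, 6 dams, 6 sons and 6 daughters in 14 CpG-dense windows named for sex or role, ordered by the difference of sires minus dams, with windows of the same gene numbered by position. On average dams are highest in Hapln4, S1pr5 and Esr1 and males are above females in Fbrsl1, while every female is above every male in C1ql3.

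Dams and daughters differed in 5 windows (all tested windows, 0.0198%), and in none did the groups separate (all tested windows, 0.0168% called and separate). The windows were near Rab6b (-29.5 points for dams minus daughters), in Gm17683 (-28.7), near Ust (-28.0), nearest to Chd6 (-21.9) and near Gm10775 (27.4). All 5 were also called between strains, and in each the dams spanned the levels of the 2 strains while the daughters, as F1, did not. Near Rab6b, for example, the dams ran from 17.8% to 94.9% and the daughters from 81.5% to 93.8%, with B6 at 26.3% and C3 at 93.4%. By limma, which fits the dams of each strain apart, adjusted p ran from 8.97e-08 to 0.0386. Exact two-sided permutation tests of 6 against 6 gave p from 0.0974 to 0.18 for the 5 windows. These tests ignored strain, so the strain difference among the dams entered their spread. They cannot decide whether dams and daughters differed beyond it. Of the 5, 4 were multi-copy and the other, near Gm10775, had a depth ratio of 4.53. Leaving out B6 dam 3 left 3 calls, and the call near Ust was lost in 9 of the fits that left out 1 animal, with adjusted p up to 0.116.

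At 10 points, 24 windows differed between dams and daughters (all tested windows, 0.136%), and in 4 the groups separated (all tested windows, 0.0786%). Beside both S1pr5 windows these were in Jak3, a kinase of cytokine receptors (50.8% in dams and 34.5% in daughters, adjusted p = 0.0046), and near Usp10 (15.2% and 30.7%), the latter a multi-copy window. Of the 24 windows, 13 were multi-copy. Jak3 also differed between sires and sons, at 46.3% and 28.3% (adjusted p = 0.00367), again without overlap (all tested windows, 0.000618% past 10 points and separate).

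Sires and sons differed in 4 windows (all tested windows, 0.00227%), all of them among the 5 just named: near Rab6b (-30.5 points), in Gm17683 (-28.3), nearest to Chd6 (-25.7) and near Gm10775 (23.6). By limma, adjusted p ran from 9.33e-06 to 0.000599. Exact permutation p ranged from 0.16 to 0.182, again from tests that ignored the strain of the sires. At 10 points 8 windows differed (all tested windows, 0.00968%), 6 of them multi-copy.

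Between sons and daughters no dense window was called at 20 points by limma (all tested windows, 0.051%) or by the quasi-binomial test, while by limma 19 (0.0632%) had an adjusted p below 0.05 at any size, against 0.343% of all tested windows, and 1384 (4.61%) an unadjusted p below 0.05, against 7.02%. At 10 points 9 windows differed (all tested windows, 0.255%). The largest was 40274 bp from the start of Ano6, with 19.7% to 27.3% in sons and 30.6% to 43.8% in daughters (difference -15.3 points, adjusted p = 6.73e-05).

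The strain difference itself was not the same in sires and dams in 1 window (all tested windows, 0.00151%). It lay in an intron of Snd1 (chr6:28782501-28783000, 68 CpGs), 754 bp from the start of Lrrc4, a synaptic adhesion gene. B6 sires had 28.2%, 33.2% and 35.2%, B6 dams 43.7%, 53.0% and 57.9%, C3 sires 34.9%, 35.8% and 46.6%, and C3 dams 18.5%, 18.9% and 23.1%. B6 dams thus lay above the other parents, apart from 1 C3 sire above the lowest of them, and C3 dams lay below all other parents. The difference of the strain effects was -38.2 points (log2 -2.5 ± 0.37 SE, adjusted p = 0.0166). As the dams had also raised litters, sex and role cannot be told apart in this term. All 68 CpGs were higher in B6 dams than in C3 dams. Sons had 36.5% ± 7.31 and daughters 24.6% ± 5.19 (SD, n = 6 each; adjusted p = 0.0344). The call was lost in 7 of the 12 fits that left out 1 parent, with adjusted p up to 0.103.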

How the data were processed

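Liver DNA of 24 mice was sequenced after bisulfite treatment, and a pair of deposited files gives, per CpG and animal, the counts of methylated and of unmethylated reads. By the submitters' notes the authors used CASAVA 1.8.2, Bismark 0.7.8, Bowtie 0.12.8 and Picard 1.110 with the mm9 genome. Another deposited file gives the reference and strain bases (letters) at single nucleotide variants, whose caller is not given in the sources used here. The 48 columns of counts were all mapped to animals (0 not mapped). The FOXA1 ChIP-seq and input samples were not analysed here. Values were not normalized, and reads mapped to 1 reference can undercount an allele with variants.

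Counts were summed over the CpGs of fixed 500-bp windows. Windows with 5 or more CpGs and at least 30 counts in each animal were tested (1456902). The log2 ratio of methylated to unmethylated counts, each plus 1, was fitted with 8 group means in limma 3.58.1 (R 4.3.3, trended and robust variance), in place of the tests of single CpGs and of called regions in the study. P values were adjusted by Benjamini-Hochberg over all tested windows, and a difference in points is one of mean percent methylation. Exact permutation tests used SciPy 1.17.1. Other steps used Python 3.11.15, numpy 2.4.6, pandas 2.3.3 and matplotlib 3.10.9. On simulated counts for 90040 windows (strain comparison), the test recovered 46% of 50 windows altered by 20 points and 100% of those altered by 30, with 0 false calls. A call itself required 20 points, so windows altered by 20 lay at the limit and the 46% does not measure power. The simulation used a single average spread for all windows, whereas the real spread differed by class. False calls among intermediate windows, which vary most, were thus not measured.

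Gene starts and exons were taken from GENCODE vM1 (NCBIM37, that is mm9), and sequences were read from that genome. Depth intervals cover counting error only. A window of median depth pooled 614 counts per animal.

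The windows and gene lists were chosen with earlier results of these data known. Windows named were, per comparison, the 8 largest differences in each direction among called windows without overlap (1 per 5 kb run), the 5 windows with most CpGs per class and place, and windows between 35% and 65% in every animal, those of imprinted genes and the 10 others with most CpGs. In the gene lists, most of those named had the highest or lowest values or lay outside the class of their list. Some, such as Dpep3, Stk31, Sycp1 and Mael, were given as examples outside this rule. A few items that these rules would name are not reported here. Called windows with overlap were named where a comparison had 5 calls or fewer. Windows at 10 points, at gene starts and by sex were named after their values were seen.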

Additional observations from a re-analysis of the deposited data

Results flagged for a closer look

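The windows named for a strain, cross or sex difference, together with the class shares, gave 108 groups of 6 animals. In 8 of these groups, all of them of windows, 1 animal stood apart by its gap to the others (over 0.625 of the range of the group). Chance marks about 5% of groups. In the Zc3h12d window, C3 dam 1 had 6.7% and the other C3 animals 1.45% to 3.41%. In the Pdcd2 window, C3B6F1 daughter 2 had 59.4% and the other C3B6F1 animals 38.5% to 43.4%. The same daughter had 59.2% in the Wnt7b window, where the others had 49.3% to 52.2%. In the Cyp46a1 window, B6C3F1 son 1 had 17.4% and the others 27.1% to 30.8%. In the window of 9430015G10Rik, C3B6F1 son 3 had 86.1% and the others 95.7% to 99.0%, and in that of Gm17683, C3 sire 1 had 5.85% and the others at most 0.629%. Of the windows that differed between crosses, C3 sire 2 had 59.2% in Mcts2 against 45.7% to 50.7%, and B6 sire 1 had 19.9% in BC051142 against 1.05% to 6.25%.

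In the Snd1 window the strain effect differed between sires and dams by -38.2 points, from the interaction term in limma, as given with the comparisons.

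Chromosome X was outside the comparisons. It held 1118 CpG-dense windows, 542 of them promoter windows, and females were 13.6 points above males there. Means over these windows were 34.3% to 39.9% in the 12 males and 47.5% to 51.1% in the 12 females, whereas the autosomal means were 15.4% to 16.2% in males and 15.6% to 16.4% in females. In 572 windows, 461 of them at a start, the mean was below 20% in males and intermediate in females, with medians of 1.75% and 26.8%. Every female was above every male in 620 windows (55.5%) and below in 6.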

How the results depend on the processing

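Counts of calls moved with the limits. With a limit of 10 points there were 505 strain, 5 cross, 22 sire-dam, 24 dam-daughter, 9 son-daughter and 8 sire-son calls. A minimum of 20 CpGs gave 234 strain, 11 sire-dam, 8 dam-daughter, 4 son-daughter and 7 sire-son calls, and a minimum of 30 CpGs gave 67, 1 and 0 for strain, dam-daughter and sire-son. The number of windows changes with the CpG minimum, so these counts are not shares. Over all tested windows, 0.494% were called for strain, 0.104% for sire-dam, 0.0198% for dam-daughter, 0.051% for son-daughter and 0.00227% for sire-son. Of windows with 10 to 24 CpGs, 0.661% were called for strain, against 0.379% of the dense windows. Without multi-copy windows 70 strain, 1 dam-daughter and 1 sire-son calls were left. Without windows of unequal B6 and C3 depth, 86 strain, 2 dam-daughter and 2 sire-son calls were left. These exclusions were chosen after seeing the data. A minimum of 100 counts gave 3 dam-daughter calls. Within females alone the crosses gave 0 calls, with 3 animals a group. The interaction gave 2 calls with a pseudocount of 5 and 4 with the quasi-binomial test. Leaving out 1 animal gave 108 to 120 strain, 3 to 4 cross, 2 to 5 sire-dam, 3 to 5 dam-daughter, 0 to 0 son-daughter, 4 to 6 sire-son and 0 to 2 interaction calls. Of 554 values of named windows under alternatives, 538 kept their direction and an adjusted p below 0.05, 16 missed that p (9 for Ust between dams and daughters, 7 for Snd1) and 0 reversed. Of the 538, 14 fell short of 20 points, each without 1 animal, at S1pr5 (down to 17.3 and 18.5 points in size in its 2 windows), Mcts2 (19.9) and Chd6 between dams and daughters (19.6). The other causes were not tested.

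Class shares followed their definitions. The unmethylated share was 68.7% and 90.3% at minimums of 20 and 30 CpGs, 84% at 100 counts, and 78.8% and 83% with class limits of 10 and 90% and of 25 and 75%. The intermediate share was 7.27%, 3.23%, 11.8% and 3.33% for the CpG minimums and class limits in that order, and the methylated share 24%, 6.49%, 9.41% and 13.7%, with 11.5% at 100 counts. The promoter share was 53.4%, 73.8% and 67.2% at 20 CpGs, 30 CpGs and 100 counts, and 55.3% and 71.1% for starts within 200 and 1000 bp.

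With the replicate number as a replicate block, 114 strain, 3 cross, 4 sire-dam, 5 dam-daughter, 0 son-daughter, 5 sire-son and 1 interaction calls were made. The numbers were not taken to pair the animals. Correlations of deviations between same-numbered animals were -0.0103 to 0.0654 over 84 pairs (median 0.00611, other numbers -0.00242). Still, 19 of 24 animals correlated best with their own number, a hint from the data and not from the design.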

Other observations

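The longest run of CpG-dense windows covered 12 windows and 585 CpGs (chr17:39980001-39986000), 10 of them intermediate and 2 unmethylated by a narrow margin, with window means from 19.5% to 23.6%. The median depth per CpG was 29.2 to 129 times that of the dense windows at large, and its part in the values was not tested. Repeated words made up 0% to 60.0% of a window. Only the windows starting at chr17:39983501 (60.0%) and chr17:39984001 (55.7%) counted as multi-copy. This measure counts copies within mm9 and not copies missing from it. Whether reads of several copies were pooled in the run was not tested, so its values may mix copies. Over the run, B6 animals had 8.17% to 23.4% (median 11.5%), C3 animals 21.7% to 29.9% (25.8%), B6C3F1 13.3% to 32.2% (18.5%) and C3B6F1 12.2% to 33.7% (27.4%). The 12 windows were 10.4 to 13.9 points lower in B6 than in C3 (limma adjusted p from 0.000384 to 0.0204), short of the 20-point limit. B6 minus C3 was -19.1 to -13.9 points within males (adjusted p from 0.00116 to 0.0254) and -8.97 to -5.45 points within females (adjusted p from 0.276 to 0.654). The animals of each group except C3 were widely spread.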
